A study of Mus musculus with 6 samples.

Results

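The immediate-early and dissociation-response genes Fos, Fosb, Jun, Junb, Egr1, Atf3, Ier2, Dusp1, Dusp2 and Hspa1a were followed through the cells of the injured mouse rotator cuff enthesis, the site where tendon inserts into bone. They were taken by symbol, as 10 of the 32285 genes in the count matrices. Single-cell RNA was sequenced 7 days after the supraspinatus tendon had been cut and sutured back, in 3 libraries from wild-type mice and 3 libraries from Nlrp3-/- mice. Both groups were adult mice on a C57BL/6 background and had the same injury and repair, and the knockout mice lack the inflammasome sensor NLRP3 in every cell. Entheses of several mice were pooled, and neither the number of mice behind a library nor their sex is given in the sources used here, so the library is the replicate and the p-values measure the spread between libraries. The titles of Nlrp3-/- replicates 2 and 3 name Nlrp3, while their genotype fields name Nlrp4 and Nlrp5.

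Immediate-early genes are switched on within minutes of a stimulus without new protein synthesis, and their transcripts are short-lived. Fos and Fosb proteins pair with Jun and Junb to form the transcription factor AP-1, ATF3 is a related factor induced by stress, EGR1 is a zinc-finger factor, and IER2 is a small nuclear protein made in the same wave. DUSP1 and DUSP2 are nuclear phosphatases that switch off MAP kinases, the kinases that turn these genes on, and HSPA1A is the inducible heat-shock protein. Enzymatic and mechanical release of cells from a tissue is itself such a stimulus, and in these data a response in the animal and one to handling cannot be told apart.

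The promoters of 5 members are printed because their levels move in different ways below: Fos, Dusp1 and Atf3, which were high in macrophages, Dusp2, whose level differed between the genotypes, and Hspa1a, which was low in neutrophils. Each window runs from 250 bases before to 50 bases after the annotated start, 5′ to 3′ on the strand of the gene (RefSeq, GRCm38.p6). They lie at chr12:85473640-85473939 (plus strand), chr17:26508423-26508722 (minus strand), chr1:191183284-191183583 (minus strand), chr2:127335909-127336208 (plus strand) and chr17:34972107-34972406 (minus strand). Capitals mark TGACGT or its reverse complement ACGTCA, the half-site of the cyclic AMP response element, with TATAAA as well in Fos, and GAANNTTC, the core of the heat-shock element, in Hspa1a.
Fos: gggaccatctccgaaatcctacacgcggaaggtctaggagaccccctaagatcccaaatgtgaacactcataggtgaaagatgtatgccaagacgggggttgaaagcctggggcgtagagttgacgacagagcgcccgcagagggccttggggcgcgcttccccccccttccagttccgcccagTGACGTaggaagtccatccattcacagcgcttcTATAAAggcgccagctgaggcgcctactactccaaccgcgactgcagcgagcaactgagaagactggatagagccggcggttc
Dusp1: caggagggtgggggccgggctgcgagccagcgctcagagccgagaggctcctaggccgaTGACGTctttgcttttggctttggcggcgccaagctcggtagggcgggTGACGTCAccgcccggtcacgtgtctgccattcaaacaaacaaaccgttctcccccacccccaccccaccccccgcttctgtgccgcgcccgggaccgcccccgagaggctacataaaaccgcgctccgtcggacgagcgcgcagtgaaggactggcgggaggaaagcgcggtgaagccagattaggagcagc
Atf3: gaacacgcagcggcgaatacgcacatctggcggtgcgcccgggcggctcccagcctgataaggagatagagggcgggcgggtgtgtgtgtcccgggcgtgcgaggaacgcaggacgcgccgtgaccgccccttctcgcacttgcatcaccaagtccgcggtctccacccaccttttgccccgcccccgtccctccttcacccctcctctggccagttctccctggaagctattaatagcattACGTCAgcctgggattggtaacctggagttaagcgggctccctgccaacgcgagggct
Dusp2: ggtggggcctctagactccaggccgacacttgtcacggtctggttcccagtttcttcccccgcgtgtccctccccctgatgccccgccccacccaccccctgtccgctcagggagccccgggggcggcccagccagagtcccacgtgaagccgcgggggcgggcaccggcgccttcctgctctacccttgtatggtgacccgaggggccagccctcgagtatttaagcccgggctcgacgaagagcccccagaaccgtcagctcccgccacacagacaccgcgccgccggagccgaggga
Hspa1a: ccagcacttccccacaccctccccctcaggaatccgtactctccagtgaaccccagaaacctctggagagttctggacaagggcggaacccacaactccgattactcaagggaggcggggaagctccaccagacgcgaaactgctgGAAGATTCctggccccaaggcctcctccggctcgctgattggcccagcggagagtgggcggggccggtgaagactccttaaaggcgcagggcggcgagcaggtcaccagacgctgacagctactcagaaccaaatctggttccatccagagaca

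In Fos the TGACGT match began 66 bases before the start site and the TATA box 33 bases before it. Dusp1 held 3 matches, beginning 191, 143 and 141 bases before the start, of which the last pair overlap in a whole cyclic AMP response element TGACGTCA. In Atf3 the match began 8 bases before the start. Windows were available for 8 members, all but Egr1 and Ier2. Of these 8, the matches to TGACGT or ACGTCA were in 3 (Atf3, Dusp1 and Fos), against 7.51% of all 32841 promoter windows of the same length. GAANNTTC, which reads the same on both strands, was in Hspa1a, 104 bases before the start, and in Jun, 128 bases before it, against 7.86% of all windows. Neither AP-1 site (TGAGTCA or TGACTCA, 5.20% of all windows) nor the CArG box bound by serum response factor (1.63%) was found in any of the 8 windows. Sites more than 250 bases before the start and inexact matches were not searched, so these promoters may still hold such sites. The Dusp2 window held none of these motifs and has no capitals. Hspa1a has a near copy next to it, Hspa1b, whose window equals that of Hspa1a at 296 of 300 positions. Of the 50-base stretches of the Hspa1a transcript, 58.8% also occur in Hspa1b, but 0% of those in its last 500 bases do, which is the end that 3′ libraries read.

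Of 80351 cells kept, 70289 in 12 cell types and a few rare ones entered the comparisons, and every level below is in CPM, the unique molecular identifiers (UMIs) of a gene over all UMIs of that cell type in that library, scaled to 1000000. Cell types were named from marker genes that did not include the members. Total counts ranged from 97042713 to 134901999 UMIs per library, and the median depth of the kept cells from 1813 to 6701 UMIs. Nlrp3-/- replicate 1 was the shallowest library, and 9607 of its 20507 cells (46.8%, Wilson 95% interval 46.2% to 47.5%) lay in clusters found almost only there and were set aside, against 67 to 111 cells in each other library. Pairs of libraries shared 26 to 95 cell barcodes. Nlrp3 was counted in 7907, 16215 and 11061 UMIs of the wild-type libraries and in 0 UMIs of each Nlrp3-/- library, which allows up to 0.0552, 0.0321 and 0.0287 CPM. The Y-linked gene Ddx3y had 3320 to 4823 UMIs in the wild-type libraries and 0 in the Nlrp3-/- libraries, and Xist, expressed from the inactive X chromosome, had 2 to 10 UMIs against 50507 to 86606, so genotype and sex cannot be told apart in any comparison between the groups. Leaving out wild-type replicate 3 raised the share of genes called between the genotypes from 0.531% to 10.6%. Barcodes with at most 100 UMIs, which hold RNA free in the suspension, carried 9 of the 10 members at 0.862 to 1.40 times their level in cells, and Hspa1a at 1.48 to 1.77 times. The part of this free RNA in the levels below was not tested.

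Each member had its own order over the cell types. The members and related genes were left out when the cells were clustered, so the cell types were not drawn by them. The levels here are means ± SD over 6 libraries. Fos was highest in macrophages at 1377 ± 359 CPM and conventional dendritic cells at 1269 ± 259 CPM, and lowest in B cells at 159.9 ± 151 CPM. Fosb was highest in conventional dendritic cells at 508 ± 154 CPM and lowest in hematopoietic progenitors at 97.2 ± 53.05 CPM. Osteoclasts, which share the monocyte lineage with macrophages, held 922 ± 306 CPM of Fos and 149 ± 35.8 CPM of Fosb, rank 3 in the order of Fos and rank 9 in that of Fosb. Jun was the most even of the members, from 504 ± 124 CPM in mast cells and basophils to 188 ± 45.3 CPM in osteoclasts. Its means had an SD of 0.48 between cell types on the log2 scale. Junb was highest in T and NK cells at 2798 ± 468 CPM and lowest in mesenchymal cells at 279 ± 64.2 CPM.

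Atf3 was concentrated in conventional dendritic cells at 493 ± 68.6 CPM and macrophages at 433 ± 65.4 CPM, followed by neutrophils at 235 ± 188 CPM with a wide spread, while osteoclasts held 33.8 ± 10.1 CPM. Egr1 had the only order led by a stromal type, mural cells (the smooth muscle cells and pericytes of vessels), at 466 ± 118 CPM, and it was lowest in hematopoietic progenitors at 37.8 ± 13.4 CPM. Ier2 was led by T and NK cells at 563 ± 58.2 CPM, mast cells and basophils at 449 ± 39.3 CPM and conventional dendritic cells at 382 ± 41.8 CPM, and each stood above the next in 6 of 6 libraries. Dusp1 was highest in macrophages at 1132 ± 224 CPM and neutrophils at 899 ± 454 CPM and lowest in plasmacytoid dendritic cells at 125 ± 30.8 and B cells at 132 ± 47.3 CPM, whereas Dusp2 was highest in B cells at 594 ± 74.9 CPM, then T and NK cells at 412 ± 138 CPM, and lowest in mesenchymal cells at 8.93 ± 4.50 CPM. Dusp2 had the widest range of the members over the cell types, with an SD of 1.59 on the log2 scale. Hspa1a was highest in conventional dendritic cells at 356 ± 124 CPM and lowest in neutrophils at 26.9 ± 12.1 CPM. These orders take neutrophils as 1 cell type. In mature neutrophils alone, a subset described below, Egr1 averaged 715 ± 486 CPM, Junb 3472 ± 390, Jun 554 ± 349, Atf3 679 ± 379 and Dusp1 2736 ± 726. These means were above those of the leading cell types, unlike the means of the other members.

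**Figure D1:**
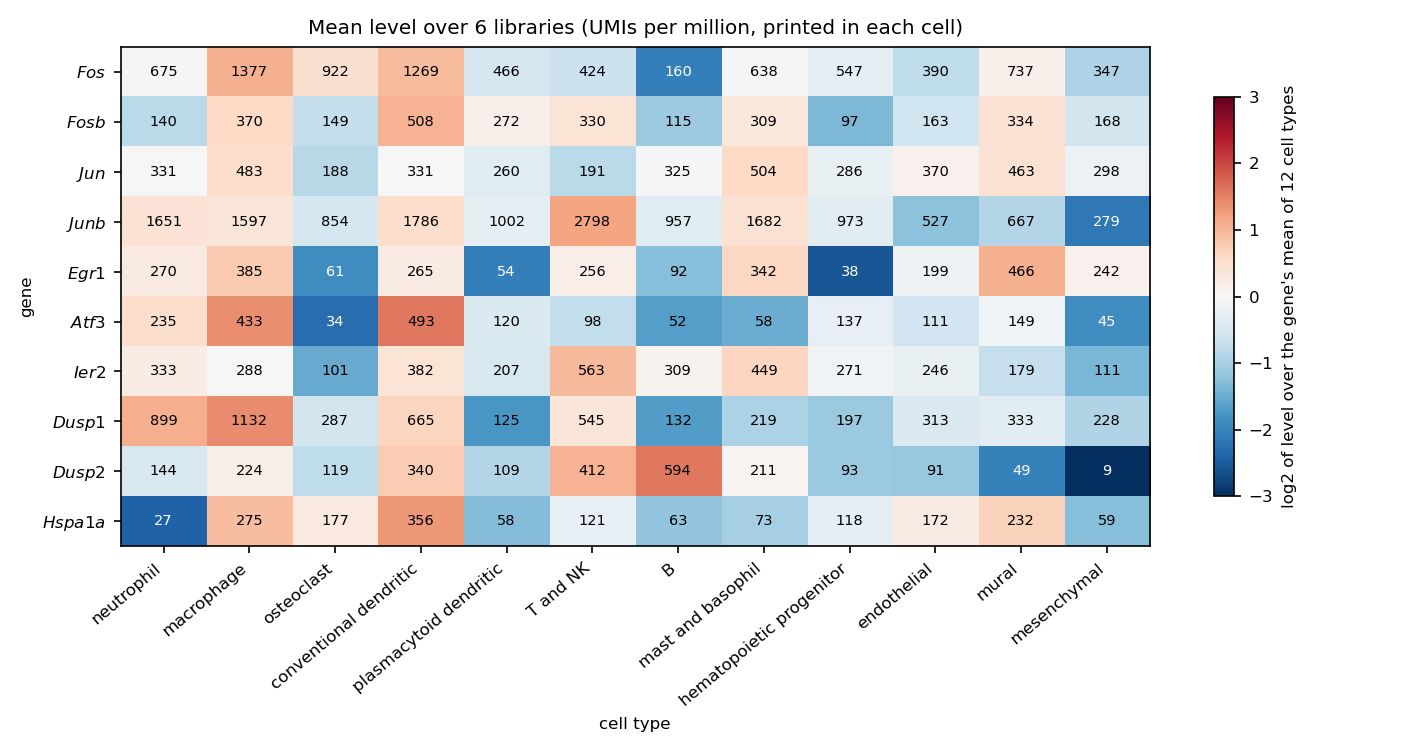
Mean level over 6 libraries of each member (rows) in 12 cell types (columns), in CPM, with colour for the log2 of the level over the mean of that gene over the cell types. Mesenchymal cells held the lowest Junb and Dusp2, neutrophils the lowest Hspa1a and B cells the highest Dusp2.

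Of 110 pairs of neighbouring cell types, 17 had the same order in all 6 libraries. An exact sign-flip permutation test over 6 libraries (two-sided) gave those 17 its smallest possible p of 0.03125, which is 0.202 after adjustment over the 110 pairs, so none passed, and with 6 libraries this does not show that neighbours were alike. For Fos, macrophages stood above conventional dendritic cells in 4 of 6 libraries (exact permutation p = 0.3125). For Dusp2, B cells stood above T and NK cells in 6 of 6, with overlapping ranges, and mural cells above mesenchymal cells in 6 of 6, with separate ranges. For Hspa1a, plasmacytoid dendritic cells stood above neutrophils in 5 of 6 (exact permutation p = 0.15625).

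Mesenchymal cells, the fibroblast-like cells that make the collagen of tendon, were called lower than macrophages in all 10 members over the 6 libraries. Within libraries, 8 members were lower in mesenchymal cells in 6 of 6, Jun in 5 and Egr1 in 4. Cell types were compared on summed counts with the library as a block (edgeR quasi-likelihood test, adjusted over all genes tested). In this comparison 81.6% of all genes were called, 39.7% lower and 41.9% higher in mesenchymal cells, so a call is common for any gene. Dusp2 had 282, 248 and 311 CPM in macrophages of the wild-type libraries and 178, 169.9 and 152 in those of the Nlrp3-/- libraries, against 9.88, 16.7 and 7.29 and 10.1, 5.63 and 3.98 CPM in mesenchymal cells. No mesenchymal value reached a macrophage value, and the log2 fold change was -4.99 ± 0.21 SE (adjusted p = 4.40e-08). Atf3 had 562, 441 and 399.7 and 390.1, 409 and 398 CPM in macrophages against 49.5, 44.9 and 53.97 and 36.9, 27.5 and 55.6 in mesenchymal cells, which were separate as well, with a log2 fold change of -3.56 ± 0.15 SE (adjusted p = 4.18e-08). In Nlrp3-/- replicate 3, Jun had 429 CPM in mesenchymal cells against 414 in macrophages and Egr1 412 against 398, and in wild-type replicate 2 Egr1 had 337 against 291. The ranges over libraries overlapped for these genes and for Fosb. The smallest differences were those of Jun at -0.99 ± 0.18 SE and Egr1 at -1.01 ± 0.25 SE (adjusted p = 6.65e-04 and 0.00496). The other 6 members fell between -1.46 ± 0.14 (Fosb) and -2.78 ± 0.14 SE (Junb). The median over the members was -2.43, against 0.029 over all genes tested.

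Between neutrophils and macrophages only the lower Hspa1a of neutrophils was called on both scales of the counts. TMM, which sets the bulk of genes equal between the libraries compared, put the median log2 difference of all genes at -0.019, while library size alone, the scale of CPM and an alternative added after the data had been seen, put it at -0.81. Hspa1a had 19.1, 26.2 and 22.3 CPM in neutrophils of the wild-type and 49.6, 28.6 and 15.6 in those of the Nlrp3-/- libraries, against 265, 297 and 249 and 365, 282 and 195 CPM in macrophages. The ranges were separate, with a log2 fold change of -2.63 ± 0.12 SE with TMM (adjusted p = 1.46e-08) and -3.43 with library size alone (adjusted p = 3.51e-10). The share of neutrophils with an Hspa1a UMI was below the erythroid median, as were those of mesenchymal cells with a Dusp2 or a Junb UMI (these shares are given with the thinned counts). Whether these low levels are background was not tested, so the folds may not measure expression in the low cell type. Hspa1b, the neighbour copy of Hspa1a, was at -1.92 ± 0.097 SE with TMM (adjusted p = 3.38e-08). With TMM, 2 members were called higher in neutrophils, where 38.2% of all genes were, and 1 lower, where 39.1% were. With library size alone 0 were higher, where 18.9% of all genes were, and 5 lower (Dusp2, Fos, Fosb, Hspa1a and Jun), where 63.2% were.

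Ier2 was the member most favoured in neutrophils on either scale. It had 314, 282 and 329 CPM in neutrophils of the wild-type and 331, 399.7 and 342 in those of the Nlrp3-/- libraries, against 293, 233 and 357 and 256, 336 and 257 in macrophages. These ranges overlap, and the log2 fold change was 1.02 ± 0.082 SE with TMM (adjusted p = 1.13e-06) and 0.22 with library size alone (adjusted p = 0.0564). Junb was at 0.82 ± 0.16 SE with TMM (adjusted p = 0.00122) and at 0.024 with library size alone. Fos was at -0.30 ± 0.15 SE with TMM (adjusted p = 0.0923) and at -1.10 with library size alone (adjusted p = 1.02e-05). Dusp1 (0.34 ± 0.33 SE with TMM) and Jun (0.085 ± 0.27) changed sign between the scales, to -0.46 and -0.72. Fosb, Atf3, Dusp2 and Egr1 were below 0 on both. In mature neutrophils alone, mean CPM was above that of macrophages for Dusp1 (2736 against 1132), Junb (3472 against 1597), Egr1 (715 against 385) and Atf3 (679 against 433). It was also above for Jun, Dusp2 and Ier2 (352 against 288), and below for Fos, Fosb and Hspa1a. Over the libraries, mature neutrophils spanned 208 to 1162 CPM for Jun, 230 to 1186 for Atf3 and 97.0 to 740 for Dusp2. Macrophages spanned 414 to 572, 390 to 562 and 152 to 311, so some mature values of these genes lay below every macrophage value. The ranking above therefore holds for neutrophils as 1 cell type.

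Neutrophils exceeded mesenchymal cells in 6 members on both scales, although here too the scales stood apart, with medians over all genes of -0.30 and -1.24. With TMM, 85.2% of all genes were called, 37.5% higher and 47.7% lower in neutrophils. With library size alone 22.5% were called higher and 64.1% lower. The 6 were Dusp2 (4.74 ± 0.26 SE with TMM, 3.80 with library size alone), Junb (3.50 ± 0.21, 2.56), Dusp1 (2.91 ± 0.44, 1.97), Atf3 (2.88 ± 0.55, 1.94), Ier2 (2.58 ± 0.18, 1.63) and Fos (1.92 ± 0.25, 0.98). Jun was called with TMM alone (0.99 ± 0.34 SE, adjusted p = 0.0204, against 0.05), and Hspa1a was called lower with library size alone (-1.15, against -0.21 ± 0.22 SE). Egr1 (0.86 ± 0.37 SE, adjusted p = 0.0540) and Fosb (0.59 ± 0.38 SE, adjusted p = 0.176) did not pass and changed sign with the scale, to -0.086 and -0.35.

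Endothelial cells differed from mesenchymal cells in 6 members, all higher on both scales, with 68.7% of all genes called and 31.2% higher with TMM and 41.3% with library size alone. They were Dusp2 (3.25 ± 0.23 SE with TMM), Hspa1a (1.38 ± 0.26), Atf3 (1.05 ± 0.092), Ier2 (0.98 ± 0.096), Junb (0.72 ± 0.095) and Dusp1 (0.33 ± 0.12, adjusted p = 0.0357, the largest of the 6). Fos was at 0.032 ± 0.12 SE (adjusted p = 0.830), and Fosb, Jun and Egr1 did not pass either. The difference of mesenchymal cells from macrophages was also called in 10 of 10 members with library size alone, from -0.74 for Jun to -4.74 for Dusp2, with 31.7% of all genes called lower.

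**Figure D2:**
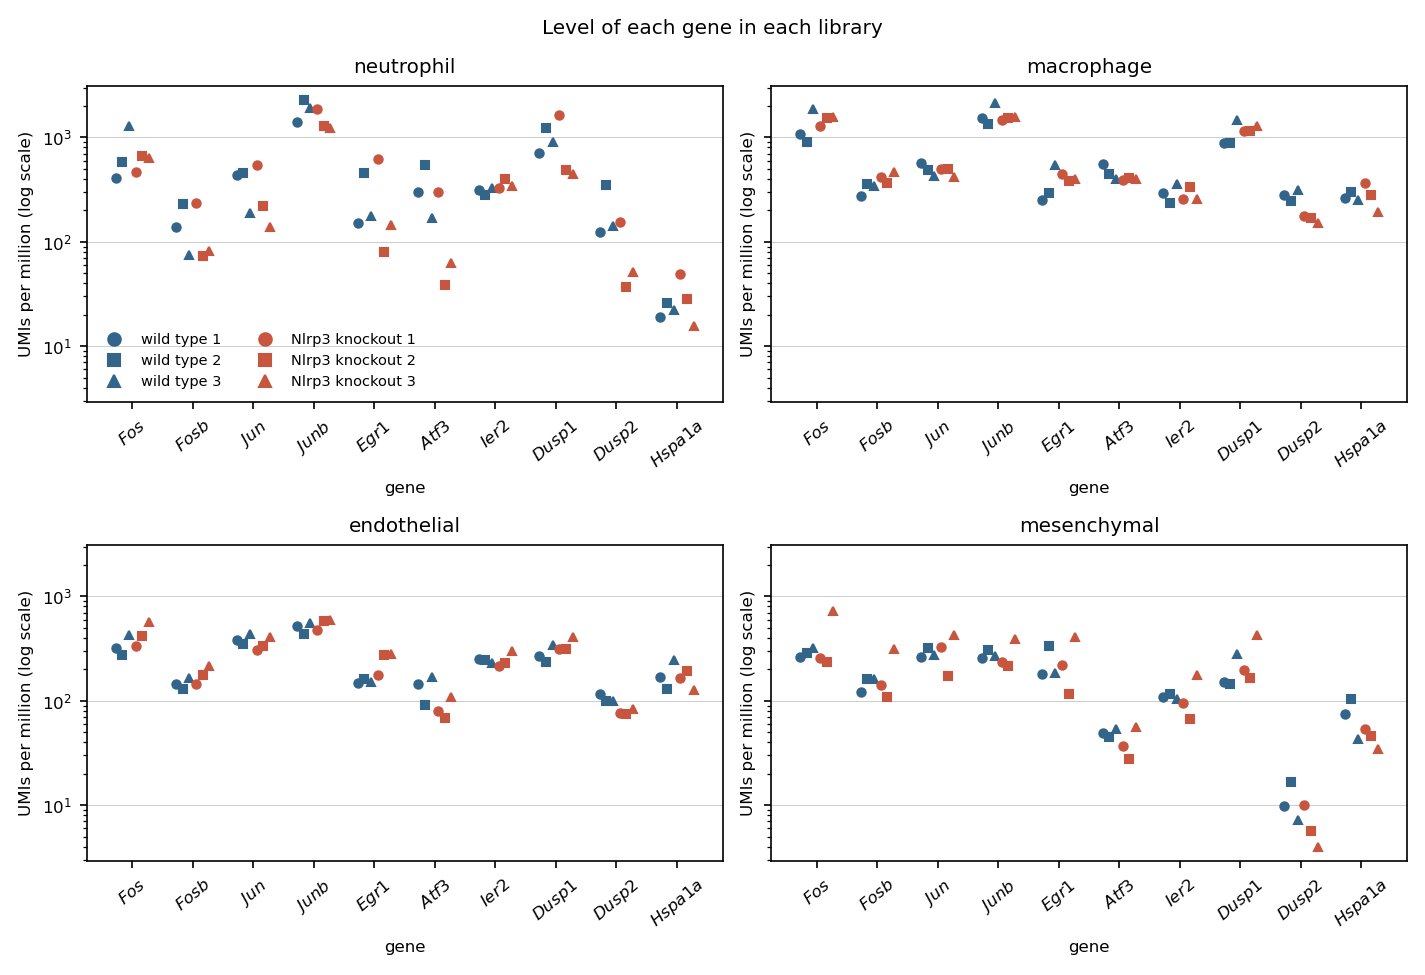
Level of each member in each of the 6 libraries (CPM, log axis) in neutrophils, macrophages, endothelial cells and mesenchymal cells, with blue for wild type, red for Nlrp3-/- and a symbol for each replicate number. Macrophage values lie close together for most members, while Egr1, Atf3, Dusp1 and Dusp2 in neutrophils spread widely between libraries.

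Related genes were counted from lists of other AP-1 and bZIP factors, other immediate-early genes, other MAP kinase phosphatases and other heat-shock genes, 77 symbols in all, with TMM. Between mesenchymal cells and macrophages, the other immediate-early genes had 7 higher and 25 lower of 35 tested, the AP-1 and bZIP factors 2 higher and 10 lower of 12 tested, the phosphatases 3 higher and 6 lower of 10 tested and the heat-shock genes 4 higher and 10 lower of 18 tested. Of all genes, 41.9% were higher and 39.7% lower. With library size alone the 4 lists together had 18 higher and 44 lower of 75, against 49.6% and 31.7% of all genes, and the heat-shock genes 6 higher and 6 lower. The 3 furthest above 0 were Ccn2 (6.11 ± 0.23, adjusted p = 2.32e-08) and Ccn1 (5.81 ± 0.18, adjusted p = 8.04e-09), which encode matrix-associated proteins, and the phosphatase Dusp14 (4.56 ± 0.22, adjusted p = 1.05e-07). The furthest below were Batf2 (-5.59 ± 0.34, adjusted p = 3.92e-07), the NF-kappa-B inhibitor Tnfaip3 (-4.51 ± 0.22, adjusted p = 1.20e-07) and Batf (-4.30 ± 0.20, adjusted p = 7.12e-08). In neutrophils against macrophages, the immediate-early list had 17 higher and 6 lower of 35 tested, the AP-1 and bZIP list 6 higher and 2 lower of 12 tested, the phosphatases 2 higher and 5 lower of 10 tested and the heat-shock list 3 higher and 13 lower of 18 tested, with 38.2% of all genes higher and 39.1% lower. With library size alone these lists had, in the same order, 8 higher and 13 lower, 5 higher and 6 lower, 0 higher and 7 lower, and 2 higher and 15 lower, with 18.9% of all genes higher and 63.2% lower. The growth-arrest gene Gadd45a (3.76 ± 0.13, adjusted p = 2.68e-09), the AP-1 subunit Fosl1 (3.55 ± 0.23, adjusted p = 2.58e-06) and Cebpd (3.04 ± 0.11, adjusted p = 4.05e-09) were furthest above, and Batf2 (-5.15 ± 0.44, adjusted p = 1.64e-06), Dusp3 (-4.85 ± 0.27, adjusted p = 8.44e-07) and Klf4 (-4.35 ± 0.36, adjusted p = 2.36e-05) furthest below. All 4 lists together had 41 higher and 24 lower of 74 tested in neutrophils against mesenchymal cells, where 37.5% of all genes were higher and 47.7% lower, and 31 higher and 34 lower with library size alone (22.5% and 64.1% of all genes). The ends with TMM were Gadd45a, Tnfaip3 and Trib1 at the top and Ccn2, Ccn1 and the small heat-shock gene Hspb1 at the bottom. The 4 lists had 42 higher and 24 lower of 75 tested in endothelial against mesenchymal cells, where 31.2% of all genes were higher and 37.5% lower, and 45 higher and 19 lower with library size alone (41.3% and 29.4% of all genes). The ends with TMM were Batf2, Batf3 and Dusp6 at the top and Dusp14, Cebpb and Dusp9 at the bottom.

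Within neutrophils, most members had higher CPM in mature cells. Mature neutrophils, named from Cxcr2, Retnlg, Csf3r and related markers, were set beside granule-rich immature neutrophils, named from Ltf, Camp, Ngp and others. These are descriptions on the CPM scale, with no test. The share of all genes higher in mature cells was not counted, and no other scale was used. A shift shared by many genes can therefore not be told apart from one of the members here. Atf3 had 1027, 1186 and 480.0 CPM in mature neutrophils of the wild-type libraries and 773, 229.9 and 379.6 in those of the Nlrp3-/- libraries, against 17.8, 30.3 and 3.82 and 22.6, 5.22 and 5.49 in immature ones. Every mature value was above every immature value, and the means differed 47.8-fold. Atf3 in the free RNA was at 259, 248 and 125 CPM in the wild-type and 190, 99.1 and 156 in the Nlrp3-/- libraries, above the immature values. The part of free RNA in those values, and so in this fold, was not tested. Dusp1 had 2239.9, 2579 and 2412 and 4192, 2611 and 2381 CPM in mature against 143, 117 and 125 and 159, 126 and 99.9 CPM in immature cells, 21.3-fold apart and again separate. Egr1 differed 13.9-fold, Dusp2 13.8-fold, Fosb 3.97-fold, Junb 3.85-fold and Fos 2.20-fold, each higher in mature cells in 6 of 6 libraries. Jun was higher in 5 of 6 (2.65-fold) and Hspa1a in 5 of 6 (1.85-fold). Ier2 stood out for its likeness in the 2 subsets: 293, 271 and 346 and 404, 412 and 388 CPM in mature against 328, 297 and 329 and 293, 406 and 343 in immature cells, a ratio of 1.06. Mature cells made up 61.6%, 75.2% and 63.2% of neutrophils in the wild-type libraries and 56.4%, 32.9% and 35.5% in the Nlrp3-/- libraries. Fits within each subset are given with the genotypes.

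Macrophage subsets differed in both directions, again in CPM, with no test and no count over all genes. Pro-inflammatory macrophages, named from Il1b, Ptgs2, Ly6c2 and others, were compared with anti-inflammatory macrophages, named from Ccl8, C1qa, Mrc1 and others. Ier2 had 461, 342 and 608 and 478, 669.5 and 533 CPM in pro-inflammatory against 216, 195 and 244 and 207, 177 and 215 CPM in anti-inflammatory cells of the wild-type and Nlrp3-/- libraries (2.46-fold in the means). It was higher in the pro-inflammatory subset in 6 of 6 libraries, as were Junb (2.19-fold), Atf3 (1.66-fold) and Fos (1.45-fold). Fosb went the other way in 6 of 6 libraries, with a ratio of 0.780, and Egr1, Jun and Hspa1a were lower in the pro-inflammatory subset in 5 of 6, with ratios of 0.693, 0.835 and 0.668. Fos and Fosb, which are paralogs, lay on opposite sides of 1 in 6 of 6 libraries.

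**Figure D3:**
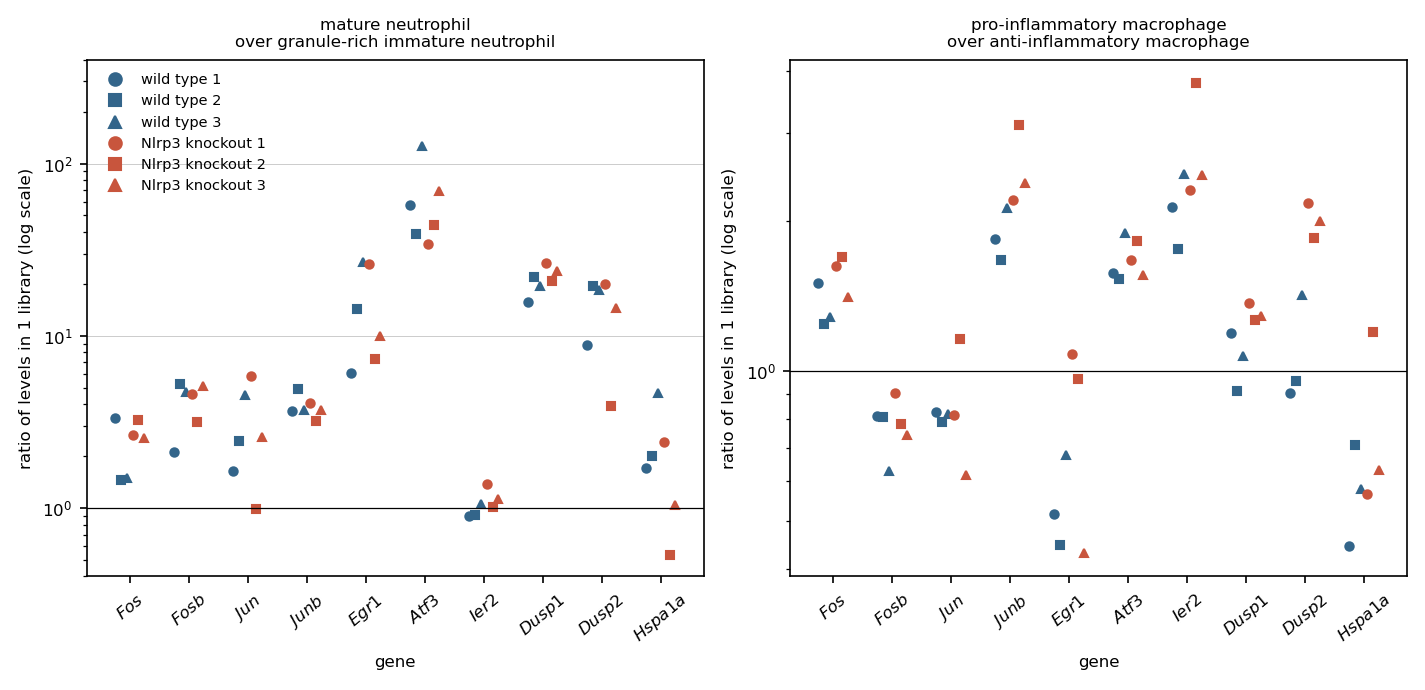
Ratio of the level in mature over granule-rich immature neutrophils (left) and in pro-inflammatory over anti-inflammatory macrophages (right) for each member and library, on log axes that differ between the panels. All 6 libraries lie above 1 for Atf3 and Dusp1 on the left and for Fos, Junb, Atf3 and Ier2 on the right, and all 6 lie below 1 for Fosb on the right.

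Shares of cells set the members apart further. After each cell had been thinned to 1000 UMIs, leaving out shallower ones, a Fos UMI was found in 66.2% (52.3% to 73.2%) of macrophages (median and range over 6 libraries, 17584 of 18603 cells used). The same share was 43.5% (33.1% to 63.4%) in neutrophils (16696 of 19805 cells used) and 21.7% (14.96% to 43.8%) in mesenchymal cells (12332 of 12498 cells used). Erythroid cells, which should hold little of it, gave 3.48% (0% to 13.5%), with 355 of 396 cells used and 9 in the smallest library. Before thinning, the median depth, as the median over the libraries, was 4969 UMIs in macrophages, 2288 in neutrophils, 14759 in mesenchymal and 8636 in erythroid cells. A Dusp2 UMI was found in 17.9% (14.7% to 26.8%) of macrophages and 0.542% (0.209% to 1.93%) of mesenchymal cells, against 0.602% (0% to 3.57%) of erythroid cells, and the mesenchymal share was at this erythroid level. For Hspa1a the shares were 20.3% (15.8% to 25.1%) in macrophages and 2.19% (1.16% to 4.31%) in neutrophils, against 2.86% (0% to 22.2%) in erythroid cells, so that the neutrophil share was also at the erythroid level. Junb was at the erythroid level in mesenchymal cells as well, with 21.8% (18.9% to 29.7%) against 23.8% (10.2% to 39.3%) of erythroid cells. Whether this erythroid share of Junb is background was not tested. Dusp1 (17.8% against 16.5%), Ier2 (9.10% against 7.25%), Atf3 (4.17% against 0.602%) and Hspa1a (4.68% against 2.86%) were above the erythroid median in mesenchymal cells but within the erythroid range, which rests on few cells. Unthinned, 89.7% of macrophages had a Fos UMI and 45.97% an Hspa1a UMI.

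Cells with a Fos UMI held other members more often in most cases. In macrophages thinned alike, the share with a Dusp2 UMI among cells with a Fos UMI was 1.73 (6 of 6 libraries above 1) times that among cells without one, as the median ratio over libraries. For Atf3 the ratio was 1.58 (6 of 6 libraries above 1), for Dusp1 1.40 (6 of 6 libraries above 1) and for Hspa1a 1.26 (5 of 6 libraries above 1). In mesenchymal cells it was 2.32 (6 of 6 libraries above 1) for Egr1, 2.26 (6 of 6 libraries above 1) for Fosb and 1.98 (6 of 6 libraries above 1) for Dusp1. It was 1.43 for Junb and 2.49 for Dusp2 there, each with 6 of 6 libraries above 1. The Dusp2 ratio rests on few cells. A Dusp2 UMI was in 0.593% to 4.33% of mesenchymal cells with a Fos UMI and 0.123% to 1.34% of those without. In neutrophils the ratio for Jun was 0.969 (2 of 6 libraries above 1) and for Hspa1a 1.09 (3 of 6 libraries above 1). These ratios are descriptions, since the cells of 1 library share their handling, and no such ratio was taken for genes other than the members.

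Nlrp3-/- and wild-type libraries were compared within each cell type. The groups also differ in sex by Xist and Ddx3y, and the paper names different suppliers for the mice, so genotype alone cannot be compared. Dusp2, the MAP kinase phosphatase of activated lymphocytes and macrophages, was lower in the Nlrp3-/- libraries. It fell in T and NK cells and in macrophages, and these were 2 of 120 member-by-cell-type tests called (edgeR quasi-likelihood test), against 0.531% of all gene tests over the 12 cell types. In T and NK cells Dusp2 had 530.0, 573 and 497 CPM in the wild-type and 259, 267 and 349 CPM in the Nlrp3-/- libraries (log2 fold change -1.04 ± 0.20 SE, adjusted p = 0.0164). In macrophages it had 282, 248 and 311 against 178, 169.9 and 152 CPM (log2 fold change -0.89 ± 0.13 SE, adjusted p = 0.0239). Neither pair of groups overlapped. Per cell type, the share of all genes called ran from 0.128% in mesenchymal cells, 0.41% in neutrophils, 0.553% in macrophages and 0.606% in T and NK cells to 0.929% in conventional and 1.09% in plasmacytoid dendritic cells. Of all genes, 0.448% were called lower in T and NK cells and 0.297% in macrophages.

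In 4 further cell types the Dusp2 groups did not overlap, although the test did not pass. Conventional dendritic cells had 343, 361 and 439.6 against 297, 307 and 291 CPM (log2 fold change -0.55 ± 0.15 SE, adjusted p = 0.0934), and endothelial cells 115, 99.9 and 99.97 against 76.97, 74.01 and 82.7 CPM (log2 fold change -0.57 ± 0.14 SE, adjusted p = 0.0754). Mast cells and basophils had 193, 305 and 263 against 176, 153 and 174 CPM (log2 fold change -0.76 ± 0.19 SE, adjusted p = 0.0978), although a finer clustering (resolution 2.0) turned the sign, to 0.65. Mural cells had 81.5, 59.7 and 55.1 against 40.6, 30.7 and 25.6 CPM (log2 fold change -1.12 ± 0.24 SE, adjusted p = 0.107). Nlrp3-/- replicate 1 stood apart in this cell type, with 793 mural cells at a median of 1457 UMIs against 79 to 168 cells at medians of 8191 to 10935 in the other libraries. Leaving this library out gave -1.37 on the log2 scale (adjusted p = 0.0702). The mural difference passed at resolution 2.0 (-1.47, adjusted p = 0.00633), with the list genes kept for clustering (-1.48, adjusted p = 0.00671), with no filter (-1.11, adjusted p = 2.67e-04) and without wild-type replicate 3 (-1.24, adjusted p = 0.0247). The free RNA moved the same way, with Dusp2 at 182, 186 and 171 CPM in the wild-type and 111, 95.3 and 79.7 in the Nlrp3-/- libraries. Mural levels lay below it in 6 of 6 libraries and endothelial levels in 5 of 6, while erythroid cells held 0 to 15.8 CPM of Dusp2. The part of the free RNA in these differences was not tested. Over all genes and the 12 cell types, 4.88% of tests had every Nlrp3-/- value below every wild-type value and 16.8% had every one above. The other 6 cell types overlapped: osteoclasts (-0.74 ± 0.20 SE), neutrophils (-1.54 ± 0.77), mesenchymal cells (-0.87 ± 0.42), B cells (-0.10 ± 0.19), hematopoietic progenitors (-0.078 ± 0.22) and plasmacytoid dendritic cells (0.16 ± 0.29). B cells, where Dusp2 was highest, had 666, 592 and 549 against 541, 702 and 516 CPM, and the wild-type range lay within the Nlrp3-/- range.

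**Figure D4:**
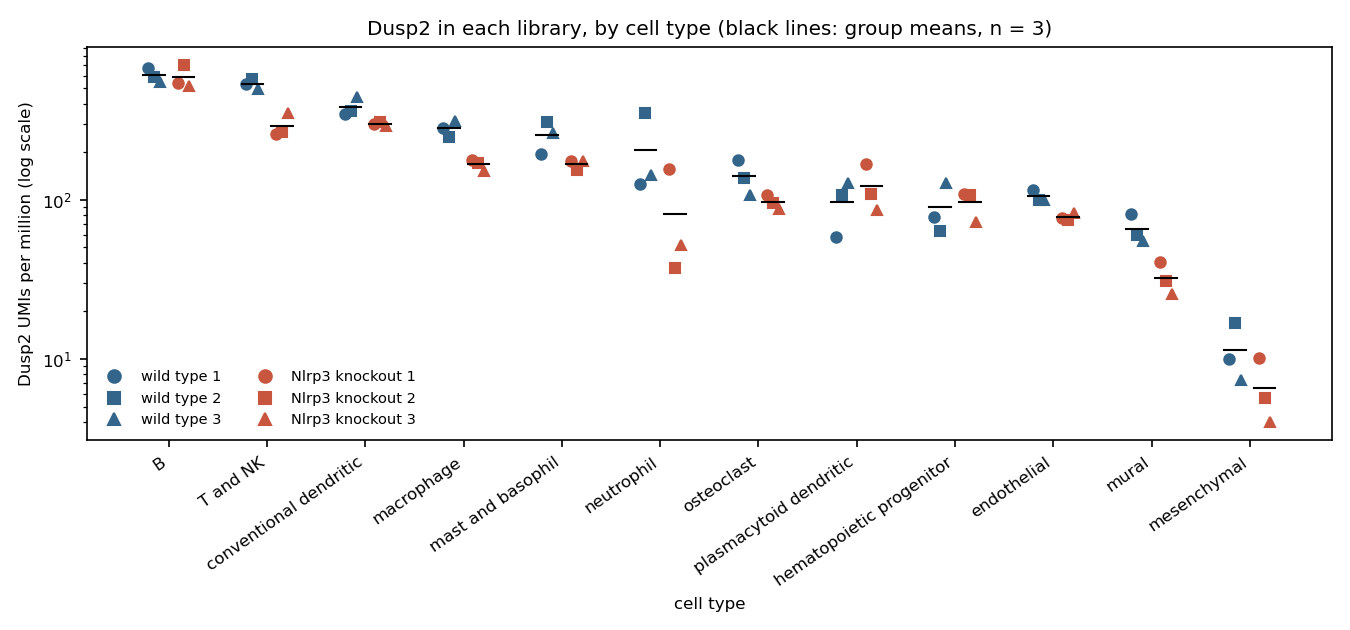
Dusp2 level in each library (CPM, log axis) by cell type, ordered by mean level, with wild type in blue, Nlrp3-/- in red and black lines at the group means (n = 3). The red points lie below all blue points in T and NK cells, conventional dendritic cells, macrophages, mast cells and basophils, endothelial cells and mural cells.

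The Dusp2 calls depended on the libraries in the fit and, in macrophages, on 1 other setting given with the processing alternatives. In T and NK cells the adjusted p ranged from 7.25e-05 to 0.125 over 17 alternatives and did not pass without any single library other than wild-type replicate 3. In macrophages it ranged from 6.60e-08 to 0.166 and passed in 12 of 17, and 4 of the 5 losses were those without wild-type replicate 1 and without any 1 of the Nlrp3-/- libraries. Without wild-type replicate 3, 19 of the 120 member tests were called (15.8%, against 10.6% of all gene tests), and Dusp2 was called in 7 cell types: T and NK cells, conventional dendritic cells, endothelial cells, macrophages, mast cells and basophils, mural cells and osteoclasts. The log2 fold change itself stayed between -1.18 and -0.86 in T and NK cells and between -0.97 and -0.75 in macrophages. Within macrophages, in fits added after these results, Dusp2 was at -1.12 ± 0.14 SE in the anti-inflammatory subset (adjusted p = 0.00628, with 0.446% of all genes called) and at -0.24 ± 0.19 SE in the pro-inflammatory subset (adjusted p = 0.564). The difference between these subsets was not tested. Macrophages in neither named subset were not fitted. They held Dusp2 at 219, 214 and 215 CPM in the wild-type and 130, 107 and 96.2 in the Nlrp3-/- libraries, without overlap. In the anti-inflammatory subset the call was lost without Nlrp3-/- replicate 3, and without wild-type replicate 3 Atf3 was called as well, with 20.6% of all genes.

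With all 6 libraries the other 9 members had no call in any of the 12 cell types, and 21 of the 120 tests, those of Dusp2 included, had an unadjusted p under 0.05 (17.5%), against 15.4% of all gene tests. Without wild-type replicate 3, where 10.6% of all gene tests were called, Fos and Egr1 were called in 3 cell types each. Jun and Atf3 were then called in 2 each, and Fosb and Hspa1a in 1 each. In macrophages Fos had 1068, 903 and 1873 against 1291, 1545 and 1583 CPM (log2 fold change 0.067 ± 0.23 SE, adjusted p = 0.892), and the wild-type range, widened by replicate 3, held the whole Nlrp3-/- range. Junb was at -0.27 ± 0.16 SE, Jun at -0.22 ± 0.16, Atf3 at -0.38 ± 0.16, Egr1 at 0.047 ± 0.24, Ier2 at -0.20 ± 0.16, Dusp1 at 0.017 ± 0.18 and Hspa1a at -0.089 ± 0.22 SE. Fosb leaned the other way from Dusp2. It had 272, 358 and 339 against 421, 369 and 461 CPM in macrophages (log2 fold change 0.23 ± 0.15 SE, adjusted p = 0.420) and 269, 406 and 477 against 615, 605 and 678 CPM in conventional dendritic cells (log2 fold change 0.53 ± 0.19 SE, adjusted p = 0.159), and its groups did not overlap in 5 of 12 cell types, all higher in the Nlrp3-/- libraries. The scale moves such counts. Over all genes, CPM (library size alone) put the median log2 fold change between 0.072 and 0.28 in the 12 cell types, and TMM put it between 0.0029 and 0.043. All 10 members together had 20 of 120 pairs of groups without overlap in CPM, 13 higher and 7 lower in the Nlrp3-/- libraries, a share of 16.7%, against 21.7% of all gene tests.

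**Figure D5:**
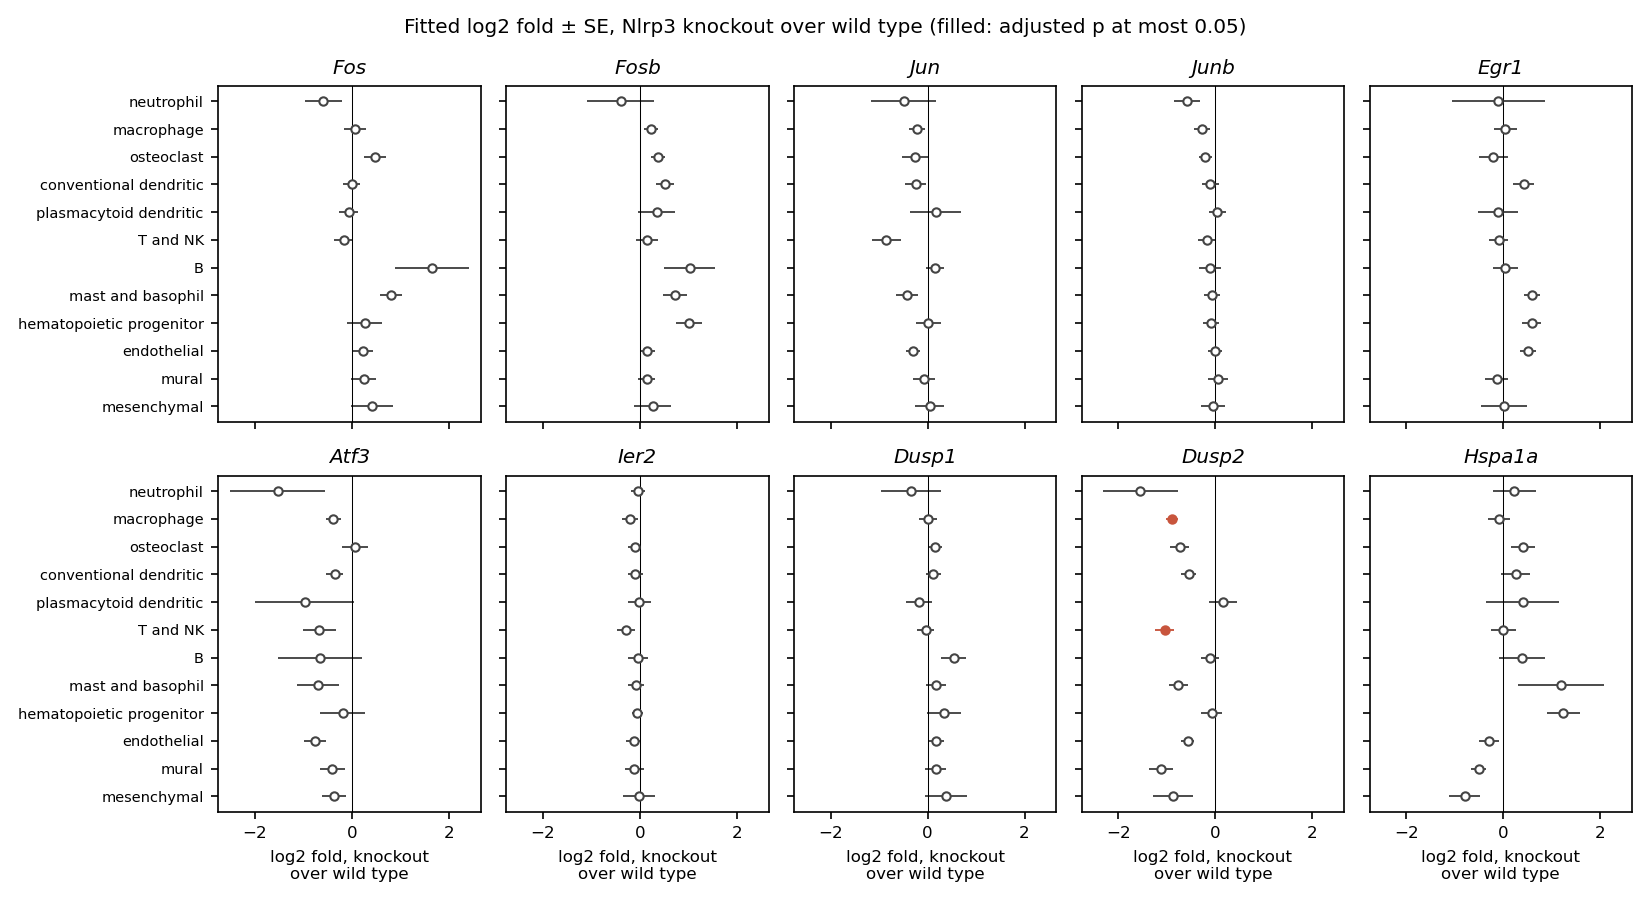
Fitted log2 fold change of Nlrp3-/- over wild type ± SE for each member (panels) in 12 cell types (rows), with filled red points where the adjusted p was at most 0.05. The 2 filled points are Dusp2 in macrophages and in T and NK cells, and neutrophils have the widest error bars for several members.

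In neutrophils the median over the members was -0.44, against 0.025 over all genes, and none passed. Atf3 had 298, 545 and 169 CPM in the wild-type and 299, 38.3 and 62.7 in the Nlrp3-/- libraries (log2 fold change -1.54 ± 0.97 SE, adjusted p = 0.520), with the low values in Nlrp3-/- replicates 2 and 3, where mature cells were also the smallest share of neutrophils. The part of that share in the difference was not tested. Dusp1 had 711, 1217 and 912 against 1620.2, 489.5 and 444 CPM, the highest and the lowest values both in Nlrp3-/- libraries. Within mature neutrophils alone, in a fit added after these results, the median of the members was 0.072 and no member had an unadjusted p under 0.05. Of all genes, 0.181% were called there. That median of the members was 0.32 without Nlrp3-/- replicate 2 and -0.41 without Nlrp3-/- replicate 1. In the latter fit 4 of 10 members had an unadjusted p under 0.05, a share that is not given for all genes. None of them was called in it, with 0.409% of all genes called. In these mature cells Atf3 was at -0.98 ± 0.51 SE (adjusted p = 0.663) and Dusp2 at -0.999 ± 0.52 (adjusted p = 0.662). In immature neutrophils the median of the members was -0.35, with no member and 1.38% of all genes called. Atf3 was at -1.16 ± 1.13 SE (adjusted p = 0.688) and Dusp2 at -0.97 ± 0.30 (adjusted p = 0.175) in these immature cells. Without wild-type replicate 3, Dusp2 was called in immature neutrophils, where the share of all genes called was 11.4%. In mesenchymal cells Nlrp3-/- replicate 3 held the highest value of Fos, Fosb, Jun, Junb, Egr1, Atf3, Ier2 and Dusp1, for example Fos at 264, 285 and 320.3 against 255, 233 and 728 CPM, and no member passed.

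Over all cells of a library, which mixes the level per cell with the share of each cell type, no member passed with edgeR, where 0.15% of all genes were called. With edgeR 2 members (Dusp2 and Junb) had an unadjusted p under 0.05, and DESeq2 called 1, Dusp2. Dusp2 had 153, 149 and 156 CPM in the wild-type and 103, 108 and 75.9 in the Nlrp3-/- libraries (log2 fold change -0.84 ± 0.15 SE, adjusted p = 0.222), without overlap. The genotype difference was also compared between cell types. For neutrophils against macrophages 0 members passed with edgeR or DESeq2, and edgeR called 0.0151% of all genes. Of the members 1, Fos, had an unadjusted p under 0.05 with edgeR. For mesenchymal cells against macrophages 0 passed by either tool, and edgeR called 0 of 15509 genes. There 1 member, Hspa1a, had an unadjusted p under 0.05 with edgeR. The share of all genes with an unadjusted p under 0.05 is not given for these comparisons or for all cells. The member counts at that threshold therefore have no background beside them.

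Of the related genes, Maff and Jdp2 fell, each in 1 cell type. They were the 2 calls (0.247%) in 811 tests of the 4 lists over the 12 cell types, against 0.531% of all gene tests called. Maff, a small MAF partner of other bZIP factors, had 74.6, 84.8 and 91.5 CPM in T and NK cells of the wild-type libraries and 32.5, 48.1 and 42.3 in those of the Nlrp3-/- libraries (log2 fold change -1.19 ± 0.22 SE, adjusted p = 0.0129). Jdp2, a Jun dimerization protein that represses AP-1 targets, had 118, 118 and 85.6 against 61.9, 47.02 and 56.8 CPM in macrophages (log2 fold change -1.10 ± 0.19 SE, adjusted p = 0.0448). Neither pair of groups overlapped. Without single libraries the Maff call was lost in 3 of 6 cases and the Jdp2 call in 5 of 6, and the Jdp2 call was kept without wild-type replicate 3. The Maff call was also lost with library size alone, and the Jdp2 call, which passed in 9 of 17 alternatives, was lost in 3 further ones, among them the list genes kept for clustering and finer clusters (Leiden resolution 2.0). Hspa1b had no call. In macrophages it had 178, 193 and 169.6 against 270.3, 235 and 135 CPM (log2 fold change 0.099 ± 0.24 SE, adjusted p = 0.840), with Hspa1a at 265, 297 and 249 against 365, 282 and 195 CPM in the same cells, and both genes were highest in Nlrp3-/- replicate 1 and lowest in Nlrp3-/- replicate 3.

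Levels of 2 members were compared with those of 6251 genes over 72 library and cell type sums, on log2(CPM + 1) centred within each cell type. For Fos the genes most alike were Txndc5 (r = 0.65), Sik1 (0.64), Edem1 (0.63), Itgal (0.62) and Ighg2c (0.61). Among the members Dusp1 was closest to it (0.61), followed by Fosb (0.55) and Junb (0.51), while Jun was at -0.01 and Dusp2 at -0.21. For Hspa1a the closest gene was Hspa1b (r = 0.89), then Slc5a3 (0.69), Myc (0.64), Wipi1 (0.57) and Heg1 (0.52), and of the members Egr1 (0.39). The points share libraries, so these are descriptions.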

How the data were processed

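The authors aligned 10x 3′ libraries to mm10 with Cell Ranger (2.1.1 in the submitters' notes, 4 in the file headers) and deposited raw UMI counts per gene and barcode, before cell calling. From these counts, barcodes with at least 500 UMIs were tested against the free RNA of barcodes with at most 100 UMIs (false discovery rate 0.01), and cells with at least 200 genes and at most 10% mitochondrial UMIs were kept. The highest doublet scores (Scrublet in scanpy 1.11.5, 0.8% per 1000 cells) were removed, 12829 of 93180 cells, because the automatic threshold marked 2447. Cells were clustered on 30 principal components (Leiden, resolution 1.0) without the listed genes, and clusters were named from marker genes. Of 36 clusters, 5 were set aside, those with over 75% of cells from 1 library and a median depth in it below the median of that library. Total depth was 97042713 to 134901999 UMIs per library, and intervals and floors (3 counts) cover counting error only.

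Within each library, UMIs of all cells of a type were added up, and types under 20 cells in any library were not tested. Summed counts were tested with edgeR 4.0.16 (filterByExpr, TMM, robust quasi-likelihood, Benjamini-Hochberg adjustment over all genes tested, threshold 0.05), for genotype within a cell type and between cell types with the library as a block. SE is the fold change over the square root of F. On simulated macrophage sums the fit recovered 67.7% of 2-fold and 100% of 4-fold changes among 12315 genes, with 7 false calls. The simulated spread depended on the level of a gene alone, and no library deviated from the others. Recovery in the real libraries may therefore be lower. DESeq2 1.42.0, other scalings, filters, cell limits and clusterings, and leaving out each library were alternatives. Named were all members, Hspa1b, up to 3 higher and 3 lower genes of the wider lists per comparison by fold change among those called, the 5 genes most like Fos and Hspa1a, and Nlrp3, Xist and Ddx3y. The members and lists were chosen with earlier results of these data known. No per-sample column was left out.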

Additional observations from a re-analysis of the deposited data

How the results depend on the processing

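In the genotype comparison within cell types, the 2 member calls became 15 with no filter on low counts, 9 with DESeq2, 4 with library size alone and 0 to 19 without single libraries. The share of all gene tests called was 0.531% as reported, 2.13% with no filter, 2.33% with DESeq2, 0.686% with library size alone and 10.6% without wild-type replicate 3. The replicate numbers did not pair the libraries (12 correlations of deviations, -0.59 to 0.042), and with the replicate block 2 members were called, Dusp2 in T and NK cells and Atf3 in endothelial cells, and 3 genes of the wider lists, while the macrophage calls of Dusp2 and Jdp2 were lost. The wider lists went from 2 calls to 41 with no filter, 30 with DESeq2, 5 with library size alone, 1 with the list genes kept for clustering and 0 to 108 without single libraries, the 19 and the 108 both without wild-type replicate 3. Over all cells, DESeq2 called 1 member. In neutrophils against macrophages 3 members became 5 with library size alone and 3 to 5 without single libraries. The share of macrophages with a Fos UMI was 47.5% at 500 UMIs and 89.7% unthinned, and with an Hspa1a UMI 12.04% and 45.97%. Library size alone and the fits within subsets were chosen after seeing the data. Plasmacytoid dendritic cells gave no value with doublets kept.

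Signs turned for values that had not passed, and the cause was not tested. Between the genotypes they were Dusp1 in macrophages with doublets kept (-0.0059), Hspa1a in macrophages (0.054) and Dusp2 in progenitors (0.096) with library size alone, Dusp2 in mast cells and basophils at resolution 2.0 (0.65), and Dusp2 in mesenchymal cells with single-library clusters kept (0.092). In neutrophils against macrophages they were Jun (-0.72) and Dusp1 (-0.46) with library size alone, Egr1 (0.24), Atf3 (0.19) and Dusp2 (0.20) with the wild-type libraries only, and Egr1 with list genes kept (0.13), at resolution 2.0 (0.13) and with doublets kept (0.049). Against mesenchymal cells they were Fosb (-0.35) and Egr1 (-0.086) in neutrophils with library size alone, Hspa1a in neutrophils with doublets kept (0.24), Fos in endothelial cells with no filter (-0.028) and list genes kept (-0.0055), and Fosb in endothelial cells with library size alone (0.025). Without single libraries the genotype range was -0.12 to 0.39 for Fos, -0.13 to 0.40 for Egr1, -0.088 to 0.25 for Dusp1 and -0.36 to 0.12 for Hspa1a in macrophages. For Dusp2 it was -0.23 to 0.0094 in B cells, -0.24 to 0.19 in progenitors and -0.10 to 0.38 in plasmacytoid dendritic cells. In neutrophils against macrophages it was -0.085 to 0.28 for Jun, -0.36 to 0.27 for Egr1 and -0.46 to 0.10 for Dusp2, and in endothelial against mesenchymal cells -0.086 to 0.15 for Fos.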

Other observations

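Muscle cells and erythroid cells had too few cells in some libraries to be tested (8 to 79 and 12 to 181 cells per library), and their levels are given as values. In muscle cells Fos had 288, 738 and 269 CPM in the wild-type and 537, 1828 and 491 CPM in the Nlrp3-/- libraries, and Egr1 had 225, 734 and 442 and 246, 1183 and 675 CPM. The highest value of both was that of Nlrp3-/- replicate 2, which had 12 muscle cells. Dusp2 rested on 0 to 19 UMIs per library there. In erythroid cells, which carry hemoglobin transcripts, Junb was at 225, 191 and 428 CPM in the wild-type and 387, 327 and 446 CPM in the Nlrp3-/- libraries, and Dusp2 had 0 to 9 UMIs per library.

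Low depth was part of the rule by which the clusters of Nlrp3-/- replicate 1 were set aside. Their largest cluster, of 6098 cells, was 97.7% from that library and carried mesenchymal markers at a median of 1289 UMIs per cell. Over all cells set aside in that library Fos was at 531 CPM, Junb at 682 CPM, Dusp1 at 455 CPM, Dusp2 at 67.3 CPM and Hspa1a at 143 CPM. In mesenchymal cells of the same library that were compared, these were 255, 234, 198, 10.1 and 53.4 CPM. The set-aside cells of all clusters were pooled here and not matched to mesenchymal cells by type. In the free RNA of that library the 5 genes were at 822, 1004, 788, 111 and 259 CPM. The part of free RNA in the set-aside levels was not tested. The set-aside cells of other libraries number 67 to 111 each.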
